A study of Mus musculus with 8 samples.

Results

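Mitochondrial ribosomal proteins, the protein part of the ribosomes inside mitochondria, were followed in activated CD4 T cells with and without a T cell-specific deletion of Bcl6. Their genes were taken as all array rows with a single gene symbol of the form Mrpl or Mrps plus a number, without pseudogene symbols, and the transcript cluster with the highest mean signal was kept for each gene. This gave 77 of the 19938 genes measured, through 85 clusters, of which 8 genes had 2. By their known places in the ribosome, 50 of the 77 encode proteins of the large subunit and 26 of the small subunit, and 1, Mrps36, carries a ribosomal name but is now known as a part of the 2-oxoglutarate dehydrogenase complex. Mrpl53 is not among them, because its only cluster also names Ccdc142. The values are log2 signals of Affymetrix whole-transcript arrays, 1 array for each sample.

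The arrays fall into 4 of T cell-specific conditional Bcl6-/- mice (Bcl6 cKO here) and 4 of wild-type mice. Bcl6 is a transcriptional repressor of helper T cells. In both groups naïve CD4 T cells were sorted and then activated for 24 hours with antibodies against CD3 and CD28 before RNA was isolated. The labels name neither the Cre driver nor the mouse strain, age or sex, nor do they say that each sample is a mouse of its own. The p-values below therefore rest on the spread among these 8 arrays, which may be technical.

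Mammalian mitochondria make a small set of proteins on their own DNA, all of them core subunits of the respiratory chain and ATP synthase. The ribosomes that do so are built from RNA encoded in mitochondria and from proteins encoded in the nucleus, made in the cytosol and imported. Some of these proteins descend from bacterial ribosomal proteins and others occur in mitochondria only. Activated T cells enlarge their mitochondria and raise mitochondrial translation as they leave quiescence and grow.

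Several facts of the arrays bear on all values. Bcl6 itself, on chromosome 16, was above wild type in Bcl6 cKO (9.05, 8.67, 8.83 and 8.40 log2 units, against 8.47, 8.33, 8.56 and 8.10 in wild type; two-sided exact permutation p = 0.0857, smallest possible 0.0286). The log2 difference was 0.37 (95% interval 0.075 to 0.67, adjusted p = 0.337, limma), and it was positive in every fit that was run. Which exons were deleted is not given, so this cluster does not check the labels. Signals of Kdm5d, Uty and Eif2s3y, which lie on the Y chromosome, were 9.47 to 10.75 on Bcl6 cKO array 1 and wild-type arrays 1, 2 and 3, and 4.58 to 5.83 on the other 4 arrays. Read this way, sex was not balanced between the groups, and wild-type array 4 was the only wild-type array with low Y-linked signal. That array also stood apart in general: the interquartile range of its deviations from each gene's mean was 0.186, against 0.0975 to 0.128 on the other 7 arrays. Of the markers of CD4 T cells 9 were measured, with mean signals from 10.96 to 13.15. Their array means were 12.25 to 12.37 in Bcl6 cKO and 12.36 to 12.41 in wild type. Of the 9, 8 lay below wild type (median log2 difference -0.068) and none passed the threshold. For 7 markers of CD8 T and NK cells the array means were 6.40 to 6.53 in Bcl6 cKO and 6.59 to 6.74 in wild type, without overlap, with 6 of the 7 below wild type and none past the threshold. Of the CD8 chains, Cd8b1 averaged 10.57 in Bcl6 cKO and 11.04 in wild type, and Cd8a 6.97 and 6.99. Ncr1, an NK cell receptor and the only marker of the 7 above wild type, averaged 5.74 and 5.59. Other NK cell receptors lay below wild type: Klrd1 averaged 5.24 in Bcl6 cKO and 5.73 in wild type, Klrb1c 3.99 and 4.12, and Klra8 4.85 and 4.90. The part of these cells in the results below was not tested. Means of B cell markers (6.46 to 6.56 in Bcl6 cKO, 6.47 to 6.54 in wild type) and of myeloid and dendritic cell markers (6.33 to 6.55 and 6.37 to 6.48) overlapped between the groups.

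The promoters show what members share in sequence. RefSeq promoter windows of GRCm38.p6, 250 bases before to 50 bases after a start, were found for 68 of the 77 genes (74 windows). The letters CCGGAAG, the core bound by ETS factors such as GABP, stood in 33.8% of these windows and in 11.6% of the windows of protein-coding genes (8.86% of all windows), searched on both strands. GCGCNTGCG, core letters of NRF1, a regulator of nuclear genes for mitochondria, stood in 24.3%, against 8.61% of coding windows and 6.31% of all. AAGATGGCG, known from YY1, stood in 10.8%, against 1.83% and 1.40%. The E-box CACGTG, bound by Myc among others, was near the background at 9.46%, against 7.84% and 7.15%. GGGCGG, known from SP factors, stood in 52.7%, against 46.2% and 35.7%. Neither TTCCTAGAA, the Bcl6 core, nor ACTACAATT, known from Thap11, occurred in a member window, where 0.390% and 0.508% of coding windows held them. None of these shares was tested, and a match of letters is not a binding site. The 250 bases before the start are shown for the member with the smallest unadjusted p among those that hold, within these bases, the ETS letters (Mrps26), the NRF1 letters (Mrpl39) and the YY1 letters (Mrpl36), and for Mrps18c, a second member with the ETS letters whose groups did not overlap. Capitals mark the ETS, NRF1 and YY1 letters. They lie at chr2:130563507-130563756 (plus strand), chr16:84735245-84735494 (minus strand), chr13:73330759-73331008 (plus strand) and chr5:100798509-100798758 (plus strand).
Mrps26: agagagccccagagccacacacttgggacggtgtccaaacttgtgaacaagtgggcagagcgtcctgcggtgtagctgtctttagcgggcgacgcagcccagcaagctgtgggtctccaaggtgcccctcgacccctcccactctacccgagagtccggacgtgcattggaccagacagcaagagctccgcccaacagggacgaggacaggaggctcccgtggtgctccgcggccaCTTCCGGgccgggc
Mrpl39: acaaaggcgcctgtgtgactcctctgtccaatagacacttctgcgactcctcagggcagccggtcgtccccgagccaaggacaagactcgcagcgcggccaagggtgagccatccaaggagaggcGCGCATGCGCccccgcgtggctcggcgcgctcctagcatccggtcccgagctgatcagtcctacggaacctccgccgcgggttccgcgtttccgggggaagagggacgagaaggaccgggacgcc
Mrpl36: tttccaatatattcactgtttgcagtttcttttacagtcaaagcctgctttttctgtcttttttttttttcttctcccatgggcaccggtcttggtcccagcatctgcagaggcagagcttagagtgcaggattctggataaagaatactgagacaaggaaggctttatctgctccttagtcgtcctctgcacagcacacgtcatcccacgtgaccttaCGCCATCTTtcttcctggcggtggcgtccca
Mrps18c: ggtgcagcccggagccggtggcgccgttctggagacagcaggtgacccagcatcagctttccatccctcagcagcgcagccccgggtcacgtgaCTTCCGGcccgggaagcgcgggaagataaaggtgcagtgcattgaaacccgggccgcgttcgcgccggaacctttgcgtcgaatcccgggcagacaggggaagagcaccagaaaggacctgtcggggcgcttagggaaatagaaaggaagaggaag
The capitals of Mrpl39 cover a pair of overlapping matches, 1 on each strand. Members with any of these ETS, NRF1 or YY1 letters (42 genes) had a median log2 difference of 0.086, Bcl6 cKO minus wild type. With the ETS letters the median was 0.080 (25 genes), and 0.090 without them (43 genes). For NRF1 the medians were 0.073 with (18 genes) and 0.089 without (50 genes), for YY1 0.12 (8 genes) and 0.088 (60 genes), for the E-box 0.14 (5 genes) and 0.088 (63 genes), and for SP 0.094 and 0.074 (34 genes each). None of these differences was tested.

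The comparison asks whether loss of Bcl6 changes the expression of these genes in activated CD4 T cells. None of the 77 members passed an adjusted p of 0.05 in either direction (limma over all genes), where 0.221% of all genes passed (21 higher and 23 lower). The smallest adjusted p was 0.261, for Mrps36, and among proteins of the ribosome 0.337, for Mrps26 (limma). At an unadjusted p under 0.05 there were 6 members, all higher in Bcl6 cKO. That is 7.79% of the 77, against 10.8% of all genes. The differences were almost all of 1 sign: 73 of 77 members stood above wild type (94.8%, against 51.0% of all genes). The median log2 difference of the 77 was 0.088 (0.0025 over all genes). Members moved together over the arrays, as described below, so this count is not 77 separate results. The differences were small, from -0.068 for Mrps21 to 0.25 for Mrpl42, which is 1.19-fold. The 95% confidence intervals of all 77 lay between -0.27 and 0.46, with a median standard error of 0.068. The groups did not overlap for 7 members (9.09%), against 5.97% of all genes. In bulk samples fewer cells of a kind and less RNA in each cell cannot be told apart.

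The size of these differences depended on 1 array. The mean over the 77 members was 10.34, 10.36, 10.45 and 10.38 on the Bcl6 cKO arrays 1 to 4, and 10.35, 10.32, 10.37 and 10.13 on the wild-type arrays. Wild-type array 4 lay below all others, and the other 3 wild-type arrays lay within or just below the Bcl6 cKO range. Of the 77 members, 70 had their lowest signal of all 8 arrays on wild-type array 4 (90.9%), as did 21.8% of all genes. Without that array 59 members were above wild type (76.6%, against 53.0% of all genes), 17 were below and 1 was equal. The median difference was then 0.043, against 0.0067 over all genes. Then 2 members had an unadjusted p under 0.05 (2.60%), against 12% of all genes. Among the 7 not lowest on wild-type array 4 were Mrpl12, Mrpl23, Mrpl58 and Mrps21, all described below. At the other end, Bcl6 cKO array 3 held the highest signal for 35 members (45.5%), against 17.6% of all genes. A single component carried 72.0% of the members' variance over the arrays, against 30.4% for all genes, with its extreme score on wild-type array 4 (-1.96) and the opposite one on Bcl6 cKO array 3 (0.946).

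**Figure D1:**
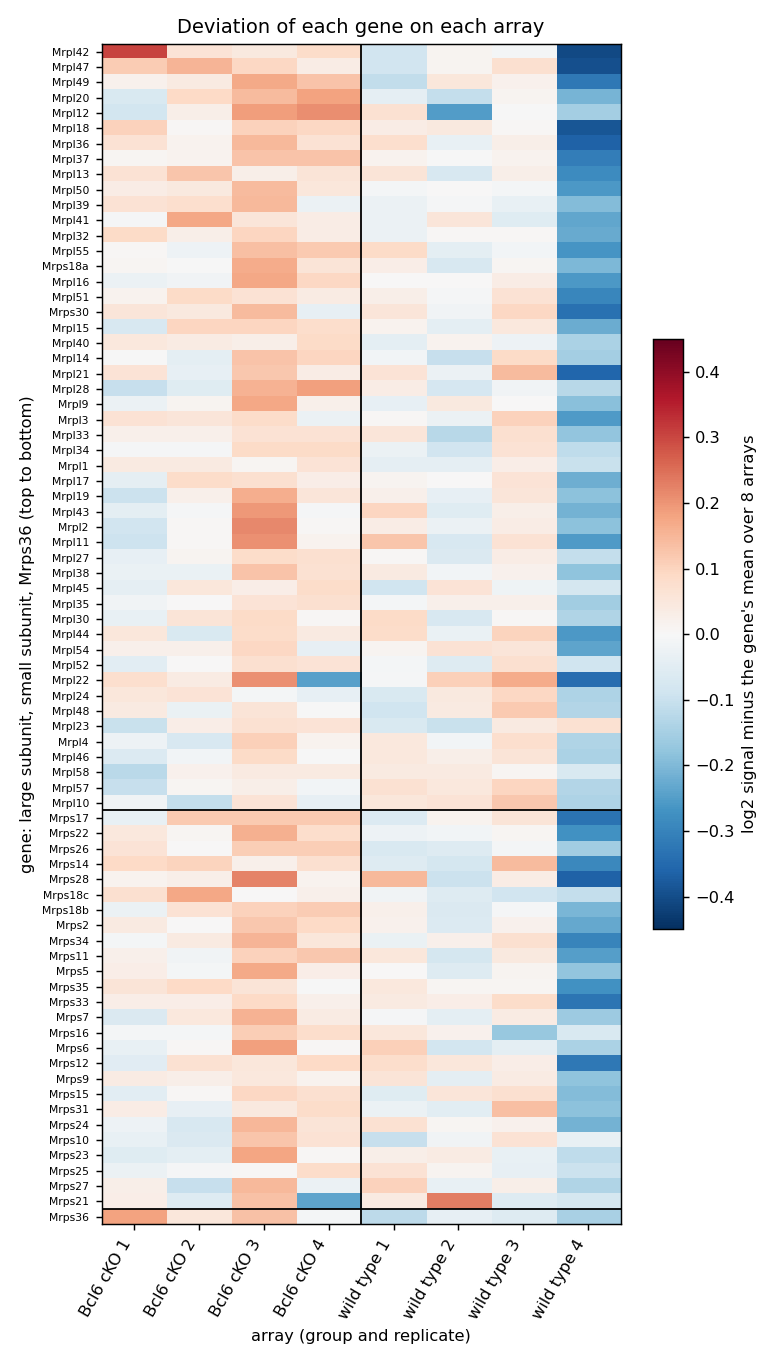
Log2 signal of each of the 77 genes on each array minus that gene's mean over the 8 arrays (colour scale in log2 units), with Bcl6 cKO arrays left and wild-type arrays right, and large-subunit genes above small-subunit genes and Mrps36. The column of wild-type array 4 is blue for 76 of 77 genes, and that of Bcl6 cKO array 3 is red for 76 of 77.

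The split by Y-linked signal gave unlike values. The arrays with high Y-linked signal were 1 of Bcl6 cKO against 3 of wild type. On these, 33 members lay above wild type and 43 below it, and the median was -0.013. This was near the background: 43.2% of all genes lay above, with a median of -0.017. An unadjusted p under 0.05 was found for 3 members (2 of them higher), against 5.39% of all genes. On the arrays with low Y-linked signal, 3 of Bcl6 cKO against wild-type array 4 alone, 76 of 77 were above, with a median of 0.26. Of all genes 47.5% were above, with a median of -0.01. There 43 members had an unadjusted p under 0.05, against 14.8% of all genes, and none passed after adjustment (limma, smallest adjusted p = 0.185). Each of these comparisons assumes that a lone array varies like the rest, and the second rests on the array that stood apart, so sex and that array cannot be told apart here. With sex as a term over all 8 arrays the median was 0.13, 20 members had an unadjusted p under 0.05 (9.97% of all genes did) and none passed after adjustment. The smallest adjusted p was 0.0800 (limma), for Mrpl42. This fit too leans most on the lone arrays, Bcl6 cKO array 1 and wild-type array 4. Whether the genotype difference differs between the sexes was not tested.

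Among the 50 large-subunit genes, 47 were above wild type, with a median difference of 0.088. Mrpl42, a protein of mitochondrial ribosomes without a bacterial counterpart, had the highest difference of all members. It read 10.08, 9.84, 9.82 and 9.86 in Bcl6 cKO, against 9.69, 9.79, 9.77 and 9.37 in wild type. The groups did not overlap, but only narrowly so, and the highest Bcl6 cKO and lowest wild-type arrays stood away from their groups. The log2 difference was 0.25 ± 0.096 (SE, adjusted p = 0.382, limma). It was 0.15 without wild-type array 4 and 0.40 with sex as a term (adjusted p = 0.0800, limma). The fit with sex leans most on those outlying arrays, Bcl6 cKO array 1 and wild-type array 4. Each is the only array of its group at its Y-linked level. Mrpl49, also specific to mitochondria, read 10.70, 10.72, 10.85 and 10.81 in Bcl6 cKO, against 10.57, 10.73, 10.70 and 10.36 in wild type. Its groups overlapped, and the difference of 0.18 was 0.10 without wild-type array 4. Mrpl20, which descends from a bacterial assembly protein of the large subunit, read 10.13, 10.29, 10.34 and 10.38 in Bcl6 cKO, against 10.16, 10.09, 10.21 and 9.99 in wild type. Bcl6 cKO array 1 lay inside the wild-type range, and the difference of 0.17 was 0.13 without wild-type array 4. These were the 3 large-subunit genes with an unadjusted p under 0.05, each far from the threshold after adjustment (adjusted p from 0.382 to 0.456, limma).

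**Figure D2:**
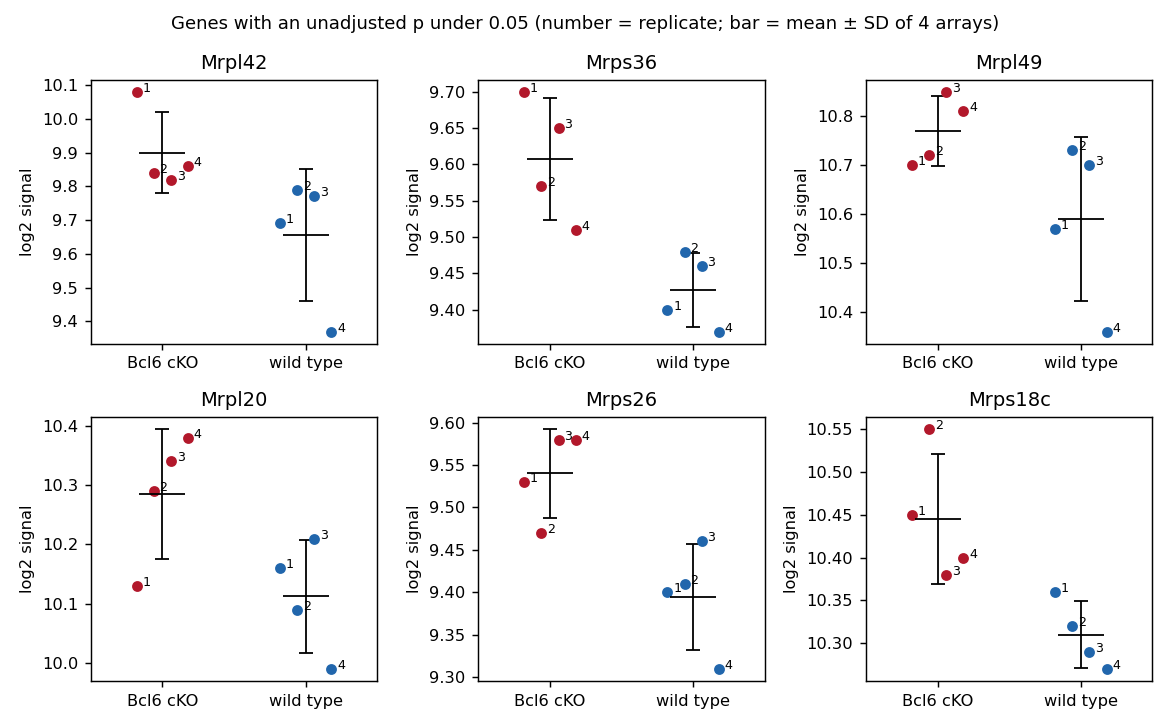
Log2 signal on each array of the 6 genes with an unadjusted p under 0.05, Bcl6 cKO left and wild type right, with replicate numbers and mean ± SD of 4 arrays. Axes do not start at 0. Wild-type array 4 is the lowest point in all 6 panels, and the groups overlap for Mrpl49 and Mrpl20.

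The stalk proteins, which bring translation factors to the ribosome, gave unlike values. Mrpl12, the stalk protein itself, read 10.77, 10.88, 11.04 and 11.06 in Bcl6 cKO, against 10.92, 10.60, 10.85 and 10.70 in wild type. Here array 2 and not array 4 was the lowest of wild type, and the difference of 0.17 (adjusted p = 0.526, limma) kept most of its size without array 4 (0.15). Mrpl10, which anchors the stalk, averaged 11.23 ± 0.070 in Bcl6 cKO and 11.28 ± 0.11 in wild type (SD, n = 4 each), a difference of -0.050. Mrpl11, at the stalk base, averaged 10.16 ± 0.13 and 10.09 ± 0.17, and its difference of 0.068 was -0.0058 without wild-type array 4. The 95% interval of the difference was -0.021 to 0.36 for Mrpl12 and -0.19 to 0.095 for Mrpl10.

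Other large-subunit genes gave values on both sides of 0. Mrpl47 had a difference of 0.20 (9.09, 9.13, 9.07 and 9.01 in Bcl6 cKO, against 8.89, 8.99, 9.05 and 8.58 in wild type), and 0.098 without wild-type array 4. Mrpl3, a core protein near the catalytic centre in bacteria, differed by 0.088, and by 0.017 without that array. Mrpl58, the rescue factor that frees stalled ribosomes and is also a part of the large subunit, differed by -0.010, with Bcl6 cKO array 1 the lowest of the 8 arrays at 10.45. The lowest large-subunit differences beside those were -0.040 for Mrpl57 and 0.0050 for Mrpl46. Mrpl23, Mrpl40 and Mrpl36 had the highest mean signals of the large-subunit genes, 12.02, 11.88 and 11.60, and Mrpl44 and Mrpl22 the lowest, 8.80 and 8.82, but signals of different clusters depend on their probes and are not levels of RNA. Mrpl22 had the widest interval of the 77, from -0.23 to 0.30.

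Mrps30 and Mrps18a carry small-subunit names but sit in the large subunit. Mrps30 differed by 0.10 (9.61, 9.60, 9.70 and 9.52 in Bcl6 cKO, against 9.61, 9.54, 9.65 and 9.22 in wild type) and by 0.0075 without wild-type array 4. Its groups overlapped apart from that array. Mrps18a and its small-subunit relatives Mrps18b and Mrps18c are 3 descendants of 1 bacterial protein, which take different places in the ribosome. They differed by 0.12, 0.13 and 0.14, with adjusted p-values of 0.559, 0.504 and 0.383 (limma). Mrps18c read 10.45, 10.55, 10.38 and 10.40 in Bcl6 cKO, against 10.36, 10.32, 10.29 and 10.27 in wild type. Its groups did not overlap, and its difference moved little without wild-type array 4 (0.12), while those of Mrps18a (0.070) and Mrps18b (0.080) became smaller.

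The 26 small-subunit genes had 25 members above wild type and a median difference of 0.088, the same as the large subunit to the digits given. Mrps26, specific to mitochondria, read 9.53, 9.47, 9.58 and 9.58 in Bcl6 cKO, against 9.40, 9.41, 9.46 and 9.31 in wild type. The groups were apart by little. Its difference was 0.15 ± 0.052 (SE, adjusted p = 0.337, limma), and 0.12 without wild-type array 4. Mrps22 differed by 0.15 and Mrps2 by 0.13 (adjusted p = 0.484 and 0.534, limma), and without that array by 0.082 and 0.069. Mrps12, which descends from the bacterial protein that governs decoding accuracy, averaged 8.83 ± 0.062 in Bcl6 cKO and 8.75 ± 0.19 in wild type (SD, n = 4 each). Wild-type array 4 stood at 8.47 and the other 3 at 8.82 to 8.87, and without it the difference of 0.080 became -0.013. Mrps21 was the only small-subunit gene below wild type, at 12.25, 12.16, 12.35 and 11.98 in Bcl6 cKO, against 12.26, 12.45, 12.16 and 12.14 in wild type. Its groups overlapped throughout. Mrps34, another mitochondria-specific protein, differed by 0.12, and Mrps15, with a bacterial counterpart, by 0.063.

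Mrps36, whose product links the subunits of 2-oxoglutarate dehydrogenase in the citric acid cycle, had the smallest p of the 77. It read 9.70, 9.57, 9.65 and 9.51 in Bcl6 cKO, against 9.40, 9.48, 9.46 and 9.37 in wild type. The groups did not overlap, and the difference of 0.18 ± 0.056 (SE, 95% interval 0.055 to 0.30, adjusted p = 0.261, limma) was 0.16 without wild-type array 4. A second cluster of Mrps36 differed by 0.20. So the member least tied to the mitochondrial ribosome and Mrps26 were the 2 with an unadjusted p under 0.05 without that array, with adjusted p = 0.330 and 0.389 (limma). The other 7 genes with 2 clusters gave differences of 0.030 to 0.20 in the cluster used and of -0.070 to 0.13 in the other. The clusters disagreed in sign for Mrpl51 (0.10 and -0.070) and Mrpl41 (0.13 and -0.015). RefSeq names pseudogenes of Mrpl23, Mrpl27, Mrpl48 and Mrps36, and whether their clusters also read these copies was not tested, so the values of these genes are less certain. For genes with 2 clusters, which of them reads the gene itself was not tested either. With the cluster of lowest mean signal kept for each gene, 71 members were above wild type and 6 below.

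**Figure D3:**
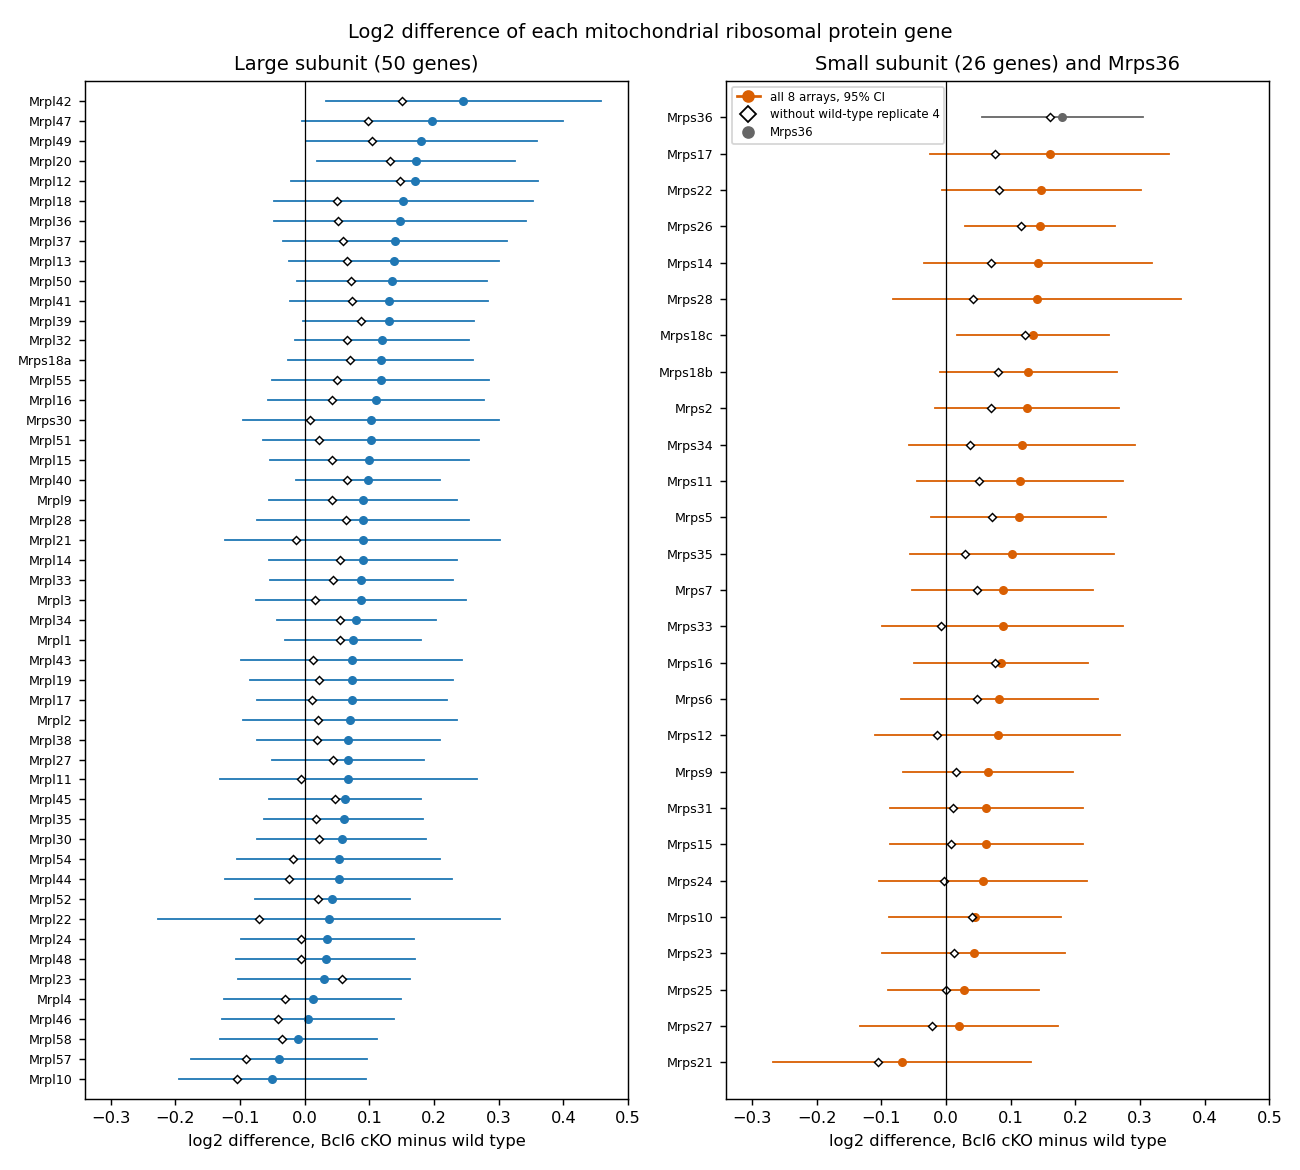
Log2 difference, Bcl6 cKO minus wild type, of the 50 large-subunit genes (left) and of the 26 small-subunit genes and Mrps36 (right), each with its 95% confidence interval from limma over 8 arrays and, as an open diamond, the difference without wild-type array 4. Most intervals include 0, and most diamonds lie nearer to 0 than the filled points.

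By descent, large-subunit proteins with a bacterial counterpart (31 genes) had a median difference of 0.088 and those of mitochondria only (19 genes) 0.073. In the small subunit the medians were 0.088 for 17 and 0.088 for 9 genes. Without wild-type array 4 the medians were 0.043 and 0.020 in the large subunit, and 0.048 and 0.012 in the small subunit. These differences between classes were not tested. Members lay on 17 chromosomes, with 11 on chromosome 11. The 3 on chromosome 16, which carries Bcl6, were Mrpl39, Mrpl40 and Mrps6. Mrpl40 read 11.93, 11.92, 11.91 and 11.97 in Bcl6 cKO, against 11.84, 11.90, 11.86 and 11.74 in wild type, without overlap and with a difference of 0.098. Mrpl39 differed by 0.13 and Mrps6 by 0.083, and none of the 3 passed (adjusted p = 0.535, 0.469 and 0.743, limma).

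Other genes of mitochondrial protein synthesis were also without a call over all genes. Of 4 measured mitochondrial ribosomal proteins with other symbols, 3 were above wild type, with differences of 0.18 for Ptcd3, a small-subunit protein that binds RNA (0.17 without wild-type array 4), and 0.12 for Chchd1 (0.045 without it). Of 13 translation factors 8 were above, with a median of 0.010 that became -0.033 without that array. The GTPase gene Guf1 differed by 0.15 and the elongation factor Tsfm by 0.16. Of 16 mitochondrial aminoacyl-tRNA synthetases 11 were above (median 0.033), among them Nars2 (0.12) and Rars2 (0.17). Without wild-type array 4, 8 were above and 8 below (median 0.0038). Of 24 genes for ribosome assembly and RNA modification 17 were above (median 0.039, and 0.0042 with 13 above without that array). Values lay on both sides, with -0.19 for the methyltransferase Nsun4 and 0.28 for the GTPase Gtpbp10. Of 13 genes for mitochondrial transcription, replication and RNA stability 9 were above (median 0.083, and 0.049 with 7 above without that array), with 0.18 for Pnpt1, an RNA-processing enzyme, and -0.23 for Polg2, an accessory subunit of the DNA polymerase. Of 12 regulators of nuclear genes for mitochondria 8 were above and 3 below (median 0.018, and 0.015 with 6 above without that array). Myc, which drives growth in activated T cells, differed by 0.17 and the coactivator Pprc1 by 0.14. The smallest adjusted p over these lists was 0.191 (limma), for Nsun4.

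The 3 further gene groups are set beside the 77 genes. Of 27 import genes 25 were above wild type with a median of 0.10 (0.043 without wild-type array 4), and 23 were lowest on that array (85.2%). Tomm20, a receptor of the outer membrane, differed by 0.20 (adjusted p = 0.124, limma), and the chaperonin Hspd1 by 0.19. Subunits of the respiratory chain and ATP synthase (76 genes) had a median of 0.045 with 59 above, and 51 were lowest on wild-type array 4. Without that array the median was 0.0079, with 41 above and 34 below. Ndufs5, named after its value was seen, was the 1 gene of that group past the threshold, with a difference of 0.58 (adjusted p = 0.0352, limma). Without wild-type array 4 its difference was 0.52 and it did not pass (adjusted p = 0.0924, limma). Cytosolic ribosomal proteins (54 genes) had a median of 0.0025, with 29 above and 25 below wild type, and 17 were lowest on that array (31.5%). No test of the differences between these groups was made. All 19 measured proliferation genes were above wild type too (median 0.32, and 0.22 without wild-type array 4), and none passed. Their means on the arrays were 9.59, 9.54, 9.90 and 10.05 in Bcl6 cKO, against 9.40, 9.76, 9.44 and 9.27 in wild type, lowest on wild-type array 4. Of 10 T cell activation markers 7 were above wild type (median 0.11, and 0.10 without wild-type array 4), and none passed. The mean of these markers was also lowest on wild-type array 4, at 12.31. The part of these lists in the values of the mitochondrial ribosomal proteins was not tested.

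**Figure D4:**
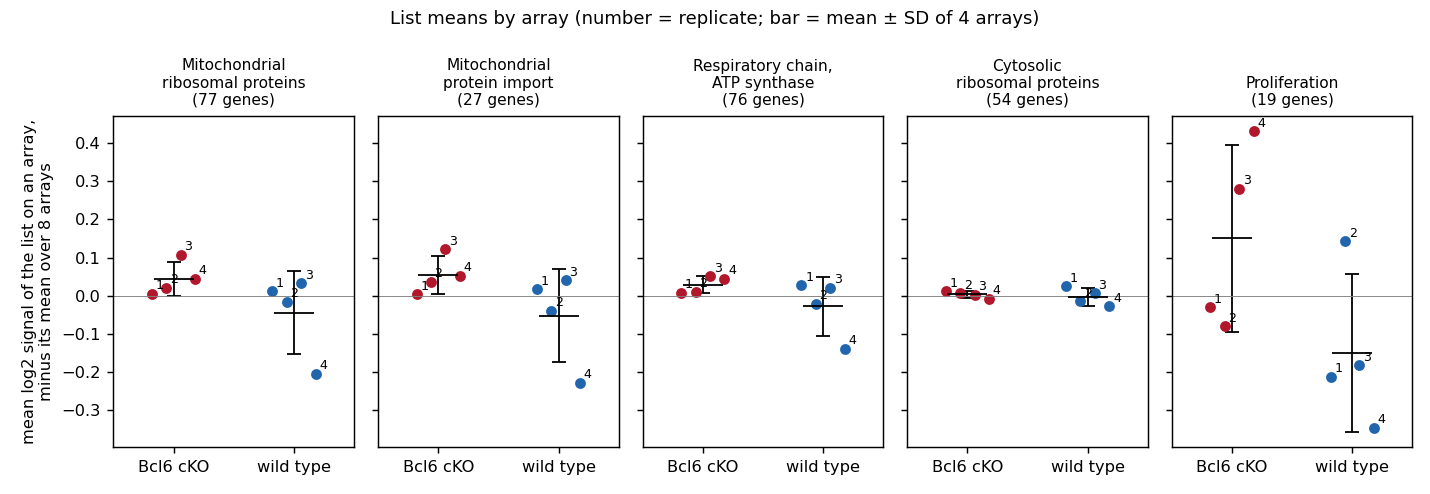
Mean log2 signal of each list on each array minus its mean over the 8 arrays, Bcl6 cKO left and wild type right, with replicate numbers and mean ± SD of 4 arrays. Wild-type array 4 is lowest in every panel, the cytosolic ribosomal proteins hardly vary, and proliferation genes vary most.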

How the data were processed

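RNA of 4 Bcl6 cKO and 4 wild-type samples was hybridised to 1 array each. RMA and Partek are named by the submitters' processing notes, and for both the version is not given in the sources used. The authors deposited log2 values of each transcript cluster on each array. Of 35556 clusters, 21789 carry 1 gene symbol in the platform annotation, 1621 several and 12146 none. Only the first were named, giving 19938 genes.

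Differences are Bcl6 cKO minus wild type, fitted with lmFit and eBayes of limma 3.58.1 (R 4.3.3), without covariates. The Benjamini-Hochberg adjustment covered the 19938 genes, with a threshold of 0.05. Steps were tested on simulated data. No 2 arrays shared the same value in more than 3.94% of genes.

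The members, the 14 companion lists (174 of 185 entries matched), the settings and the rule for named genes were chosen with earlier results of these data known. The groups of cytosolic ribosomal and respiratory chain genes were added later. Named members are those past the threshold, per subunit the 5 with the smallest p, the 3 with the highest and 2 with the lowest signal, the 5 highest and 5 lowest differences, 10 fixed names and those on chromosome 16. From each mitochondrial list 2 genes with the smallest p are named where none passed.

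Alternatives were other variance moderation, array weights, 2 scalings, 2 filters on mean signal, other clusters, the replicate block, sex, odd or even replicate number, leaving out each array, and 2 thresholds. Sex was read from the Y-linked genes.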

Additional observations from a re-analysis of the deposited data

Results flagged for a closer look

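In groups of 4 arrays, a value was picked out where its gap to the nearest other array took up more of the group's range than Dixon's 95% limit, which chance passes in about 1 of 20 groups. Of 96 groups, 8 passed, and 5 of these on wild-type array 4. These were Mrpl39 (ratio 0.842, 11.20 against 11.36 to 11.39), Mrps22 (0.893, 10.20 against 10.45 to 10.48), Mrps12 (0.875, 8.47 against 8.82 to 8.87), Mrpl46 (0.850, 9.33 against 9.50 to 9.53) and the mean of the small-subunit genes (0.856, 9.98 against 10.17 to 10.20). In Bcl6 cKO, array 1 stood high for Mrpl42 (0.846, 10.08 against 9.82 to 9.86) and low for Mrpl58 (0.875, 10.45 against 10.59 to 10.61), and array 3 stood high for the import gene Hspd1 (0.857, 13.15 against 13.01 to 13.03).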

How the results depend on the processing

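No mitochondrial ribosomal protein gene passed an adjusted p of 0.05 in any fit that was run. At an adjusted p under 0.1 none passed over all 8 arrays without covariates, and Mrpl42 did with sex as a term (adjusted p = 0.0800, limma). That fit leans most on Bcl6 cKO array 1 and wild-type array 4. Without covariates, 6 members were higher and none lower at an unadjusted p under 0.05. The median difference of the 77 genes moved most within arrays of 1 Y-linked level. Over all genes the median there was -0.017 with high signal and -0.01 with low signal. For the 77 genes it was -0.013 (large subunit -0.013, small subunit -0.012) with high signal and 0.26 (0.27 and 0.25) with low signal. Leaving out 1 array gave 0.043 to 0.12 (large subunit 0.043 to 0.11, small subunit 0.041 to 0.12). Over all genes the counts were unstable. Leaving out 1 array gave 5 to 39 genes higher and 5 to 100 lower. Both highest counts came without Bcl6 cKO array 1, and leaving out any of the other 7 arrays gave at most 12 higher and 10 lower. The lower genes numbered 47 with an intensity trend or robust moderation, 51 with array weights, 13 with median centring, 14 with quantile normalization, and 42 and 52 with the filters at the 30th percentile and the median. With sex as a term 5 were higher and 5 lower, within either Y-linked level 0 and 0 (1074 and 2955 at an unadjusted p under 0.05), and with odd or even replicate number 33 and 60. At an adjusted p under 0.1 there were 42 and 90, and at an unadjusted p under 0.05 932 and 1231. The causes were not tested.

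Of all 77 members, 13 above wild type were below it without wild-type array 4. Among the 45 named genes the sign changed as follows. With array weights Mrpl22 was -0.050 and Mrpl46 -0.027. With sex as a term Mrpl23 was -0.037 and Mrpl10 0.0067. On arrays with high Y-linked signal Mrpl20 was -0.023, Mrpl23 -0.057, Mrpl22 -0.013, Mrps18b -0.010, Mrps15 -0.070, Mrps12 -0.10, Mrps34 -0.030, Mrpl46 -0.11, Mrpl12 -0.020, Mrpl11 -0.13, Mrps6 -0.027 and Chchd1 -0.020. On arrays with low signal Mrpl23 was -0.017, Mrps21 0.023, Mrpl10 0.11, Mrpl57 0.14 and Mrpl58 0.10. Leaving out 1 array gave -0.0058 to 0.12 for Mrpl11, -0.071 to 0.13 for Mrpl22, -0.025 to 0.095 for Mrpl44, -0.042 to 0.027 for Mrpl46, -0.035 to 0.028 for Mrpl58, -0.013 to 0.12 for Mrps12 and -0.12 to 0.00083 for Mrps21.

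The groups share replicate numbers. Deviations of same-numbered arrays from their group means correlated at 0.0731, 0.206, 0.203 and 0.205 across genes. By these deviations Bcl6 cKO arrays 2, 3 and 4 matched the wild-type array of their own number best. Bcl6 cKO array 1 matched wild-type array 3 best. Not every pair passed 0.1, so the numbers are not taken as pairs. Whether arrays of the 2 groups share a batch was not tested. With the replicate block 15 genes were higher and 20 lower, no mitochondrial ribosomal protein gene passed, and their median stayed at 0.088. Tomm20 passed only with an intensity trend (adjusted p = 0.0443, limma; 0.157 to 0.303 without 1 array). With 4 arrays a group, the 95% interval of a member's difference reached 0.11 to 0.26 to either side on the log2 scale (median 0.15).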
